A study of Mus musculus with 3 samples.

Results

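Kinesins are motor proteins that use ATP to walk along microtubules, or to take them apart. Mitotic kinesins push spindle poles apart, move and align chromosomes and finish cell division, and their genes are switched on late in the cell cycle, so in a culture they follow the dividing cells. Transport kinesins carry vesicles, organelles and ciliary cargo in dividing and resting cells alike, and in fibroblasts they serve secretion, endosome recycling and the primary cilium. The kinesin genes were taken as the protein-coding genes whose symbol is Kif or Kifc followed by a number and at most a letter a to c. This gave 43 of the 56748 genes of the count table, sorted by textbook role into 13 mitotic, 15 transport and 15 other kinesins. Cenpe, the centromere kinesin, carries another symbol and was not a member.

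The kinesins were read in bulk RNA sequencing of fibroblasts from the visceral fat of mice labelled WT and fed a high-fat diet (HFD). The groups were cells given recombinant human TGF-beta1 at 3 ng/mL for 24 h, cells given recombinant mouse oncostatin M (Osm) at 3 ng/mL for 24 h, and a vehicle control for which the labels give no time. The fibroblasts of all 3 groups were what remained of the stromal vascular fraction after magnetic depletion of CD45, CD31 and Ter119 positive cells. The labels say neither how many mice were pooled nor the age of the mice or the passage of the cells. TGF-beta1 drives fibroblasts to make matrix and to contract, and Osm belongs to the interleukin 6 cytokines.

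Each group was 1 library, so differences could not be checked against replicates and no test between conditions was possible. The libraries held 17319872 to 18533741 counted reads and 20346 to 20702 genes with any count. A gene was tested where it reached 1 CPM (counts scaled to library size with TMM factors) in at least 1 library, which 13712 genes did. Each fold change carries an exact 95% interval from the counts, which covers counting error only and compares 2 libraries, not the conditions. Of the 8 fibroblast markers, all were present, with Pdgfra at 697, 1122 and 1129 CPM in the TGF-beta1, Osm and vehicle libraries. Leukocyte markers summed to 17.6, 21.1 and 24.3 CPM in the same order, with Itgam and Cd3e at 0 counts and Ptprc at 0, 2 and 0 counts. Most of that sum was Csf1r at 10.2, 8.41 and 8.48 CPM, Cd68 at 3.69, 6.68 and 8.91, and Cd14 at 2.88, 5.24 and 5.71. Endothelial markers summed to 37.4, 45.2 and 56.2 CPM, mostly Tek, with Vwf at 1.57, 4.84 and 6.20 CPM and Cldn5 at 0. All 5 erythroid markers were at 0. Mural markers summed to 88.5, 30.1 and 28.6 CPM, of which Cspg4 gave 74.9, 7.38 and 8.53 CPM. Mesothelial markers summed to 49.4, 40.5 and 42.0 CPM, mostly Wt1, and adipocyte markers to 12.9, 22.2 and 22.1 CPM, nearly all Fabp4, with Plin1, Lep and Pck1 at 0.

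Of the 43 kinesins, 42 had at least 1 read and 34 were tested, among them all 13 mitotic kinesins, 14 of 15 transport kinesins and 7 of 15 others. Between genes, levels were compared in the deposited FPKM (reads scaled to transcript length and to library size). Transport kinesins held 87.5%, 88.7% and 89.1% of all kinesin FPKM in the TGF-beta1, Osm and vehicle libraries, and mitotic kinesins held 3.25%, 2.63% and 2.24%. The mitotic kinesins lay between 0.105 and 1.82 FPKM in the TGF-beta1 library, between 0.0499 and 1.96 in the Osm library and between 0.0630 and 1.39 in the vehicle library. Their median was 0.547 FPKM with TGF-beta1, 0.355 with Osm and 0.350 with vehicle, against 5.39, 6.18 and 6.20 FPKM for the tested transport kinesins. All 13 mitotic kinesins stayed under 10 CPM in every library, so each of their ratios rests on few reads.

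**Figure D1:**
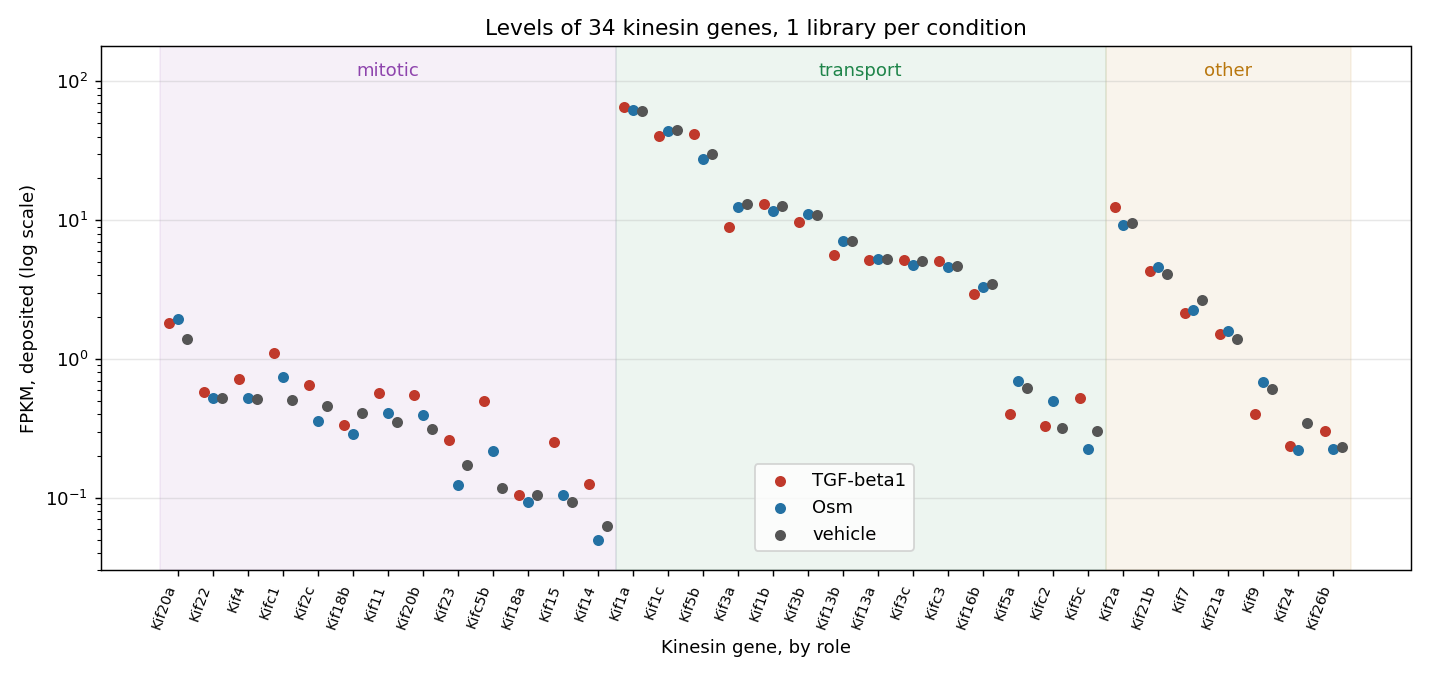
Deposited FPKM (log axis) of the 34 tested kinesins, by role and in order of their vehicle level; each point is 1 library of TGF-beta1, Osm or vehicle cells. Kif1a stands highest at 65.0, 62.1 and 61.1 FPKM in the TGF-beta1, Osm and vehicle libraries, while no mitotic kinesin exceeds 1.96 FPKM.

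Kif1a, known best as the motor for synaptic vesicle precursors in neurons, was the most abundant kinesin in each of the 3 libraries, at 65.0 FPKM with TGF-beta1, 62.1 with Osm and 61.1 with vehicle. It gave 27.9%, 28.2% and 27.3% of all kinesin FPKM and ranked 709 among protein-coding genes in the vehicle library. Kif1c, its relative that moves secretory and integrin vesicles, followed at 40.5 FPKM with TGF-beta1, 43.6 with Osm and 44.8 with vehicle. Kif5b, the heavy chain of conventional kinesin that most tissues use, stood at 41.7, 27.7 and 29.9 FPKM. It thus lay slightly above Kif1c in the TGF-beta1 library, with no counting interval computed, and under Kif1c in the others. Kif1a (chromosome 1, 92943186 to 93029673, minus strand, mm39) overlaps no other protein-coding gene and shares none of its 50-base windows with a transcript of another gene. Of the neural and Schwann cell markers, Snap25, Syt1, Sox10 and Rbfox3 had 0 counts in all 3 libraries, and S100b had 8, 4 and 8 in the TGF-beta1, Osm and vehicle libraries. The neuronal tubulin gene Tubb3, also on that list, was at 185 CPM with TGF-beta1, 120 with Osm and 111 with vehicle.

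With TGF-beta1, mitotic kinesins were higher than with vehicle as a group. Their reads summed to 728 with TGF-beta1, 509 with Osm and 477 with vehicle, or 39.5, 29.3 and 25.9 CPM. The sum was 1.52-fold higher with TGF-beta1 than with vehicle (1.36 to 1.71). Of the 13 members, 11 lay above a log2 ratio of 0, and their median log2 ratio was 0.59, beside 0.01 over all genes tested and -0.08 over the 4354 tested genes under 10 CPM in every library. A gene was called 2-fold different where the log2 ratio (prior count 0.5) reached 1 in either direction and the counting interval excluded a ratio of 1. By this rule 3 mitotic kinesins were higher and none lower, where 2.27% of all genes tested were called higher and 4.79% lower, 7.06% together. Among the genes under 10 CPM, 5.01% were called higher and 9.85% lower. With a 1.5-fold threshold 5 were higher and none lower, where 6.01% of all genes tested were higher and 9.53% lower, 15.5% together, and 9.83% of the genes under 10 CPM were higher. Kif14 and Kifc5b reached 1 CPM in the TGF-beta1 library alone and so could only be high there. Kifc5b was among the 5 called at 1.5-fold and, with Kif15 and Kifc1, among the 3 called at 2-fold. Without Kif14 and Kifc5b the median log2 ratio of the other 11 was 0.48. In bulk RNA, more dividing cells and more RNA per dividing cell cannot be told apart.

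Of the kinesins that build the bipolar spindle, all 4 were called higher at 1.5-fold and 3 at 2-fold. Of all genes tested, 6.01% were called higher at 1.5-fold and 2.27% at 2-fold. Among the genes under 10 CPM these shares were 9.83% and 5.01%. Kifc5b, one of the 3, reached 1 CPM in the TGF-beta1 library alone and so could only be high there. Without Kifc5b, Kif11, Kif15 and Kifc1 were called higher at 1.5-fold, and Kif15 and Kifc1 at 2-fold. Kifc1 and Kifc5b share much of their sequence, so their calls may not be independent. Subgroups of mitotic kinesins by task were not among the gene lists, and members were chosen with earlier results known. The calls in this subgroup and in those below therefore cannot be weighed against the shares over all genes. Kif11, which slides spindle microtubules apart, had 78 reads with TGF-beta1, 53 with Osm and 48 with vehicle, and was 1.62-fold higher with TGF-beta1 than with vehicle (1.12 to 2.38). Kif15, which backs Kif11 in keeping the poles apart (chromosome 9, 122780111 to 122847798, mm39), had 51 reads with TGF-beta1, 20 with Osm and 19 with vehicle, a 2.68-fold difference between TGF-beta1 and vehicle (1.56 to 4.81). The TGF-beta1 library was high for both, and the Osm library lay near vehicle. Kifc1, a minus-end motor that bundles microtubules at the poles (chromosome 17, 34094633 to 34109635, mm39), had 70 reads with TGF-beta1, 44 with Osm and 32 with vehicle, and was 2.18-fold higher with TGF-beta1 (1.42 to 3.43). Its close copy Kifc5b (chromosome 17, 27136065 to 27151557, mm39) had 34 reads with TGF-beta1, 14 with Osm and 8 with vehicle, and was 4.24-fold higher (1.93 to 10.6). These genes are near-identical over long stretches, with 45.8% of the 50-base windows of Kifc1 found in Kifc5b and 40.9% of those of Kifc5b found in Kifc1. How reads were split between them is unstated in the labels and file headers, so the value of either alone is uncertain. Without both, the summed mitotic kinesins were still 1.43-fold higher with TGF-beta1 than with vehicle.

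Of the kinesins that act on chromosomes and on microtubule ends, none was called between TGF-beta1 and vehicle. Of all genes tested, 15.5% were called at 1.5-fold. Kif4, a chromokinesin that also shortens the central spindle, had 73 reads with TGF-beta1, 50 with Osm and 52 with vehicle (1.40-fold over vehicle, 0.969 to 2.04). Kif2c, which depolymerises microtubules at centromeres, had 52 reads with TGF-beta1, 27 with Osm and 37 with vehicle (1.40-fold, 0.903 to 2.20). Their intervals included 1. Kif22, a chromokinesin, was at 52, 45 and 47 reads in the TGF-beta1, Osm and vehicle libraries, a ratio of 1.10 between TGF-beta1 and vehicle (0.730 to 1.67). Kif18a, which dampens chromosome movement at microtubule plus ends, had 19 reads with TGF-beta1, 16 with Osm and 19 with vehicle, a ratio of 0.998 with an interval that reached up to 1.99. Kif18b, which shortens astral microtubules, had 22, 18 and 27 reads, a ratio of 0.813 (0.442 to 1.48). At this depth the intervals did not exclude a 1.5-fold difference upward for Kif22, downward for Kif18b or in either direction for Kif18a.

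Of the kinesins of the central spindle and cytokinesis, Kif20b was called higher at 1.5-fold, beside 6.01% of all genes tested. It had 70 reads with TGF-beta1, 48 with Osm and 40 with vehicle, 1.75-fold higher with TGF-beta1 (1.17 to 2.64). Kif23, the motor of centralspindlin, had 38 reads with TGF-beta1, 17 with Osm and 25 with vehicle (1.52-fold over vehicle, 0.892 to 2.62). Kif14, which acts with citron kinase at the midbody, had 24 reads with TGF-beta1, 9 with Osm and 12 with vehicle (2.00-fold, 0.960 to 4.38). Both intervals reached 1, so neither was called. Kif20a, which relocates the chromosomal passenger complex to the midzone, was the most abundant mitotic kinesin, with 145 reads with TGF-beta1, 148 with Osm and 111 with vehicle. It was 1.30-fold higher with TGF-beta1 than with vehicle (1.01 to 1.69) and was the mitotic kinesin for which Osm was not below TGF-beta1. Kif20a overlaps Cdc23 on the opposite strand over 2327 bases. Cdc23 had 974 reads with TGF-beta1, 910 with Osm and 958 with vehicle, and since the labels do not say whether strand was used, reads of the pair may be mixed. Kif4 likewise overlaps Pdzd11, at 527, 377 and 435 reads in the TGF-beta1, Osm and vehicle libraries, and Kif18a overlaps Mettl15 by 11 bases. Without the mitotic kinesins that overlap another protein-coding gene, the summed ratio of TGF-beta1 over vehicle was 1.66.

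**Figure D2:**
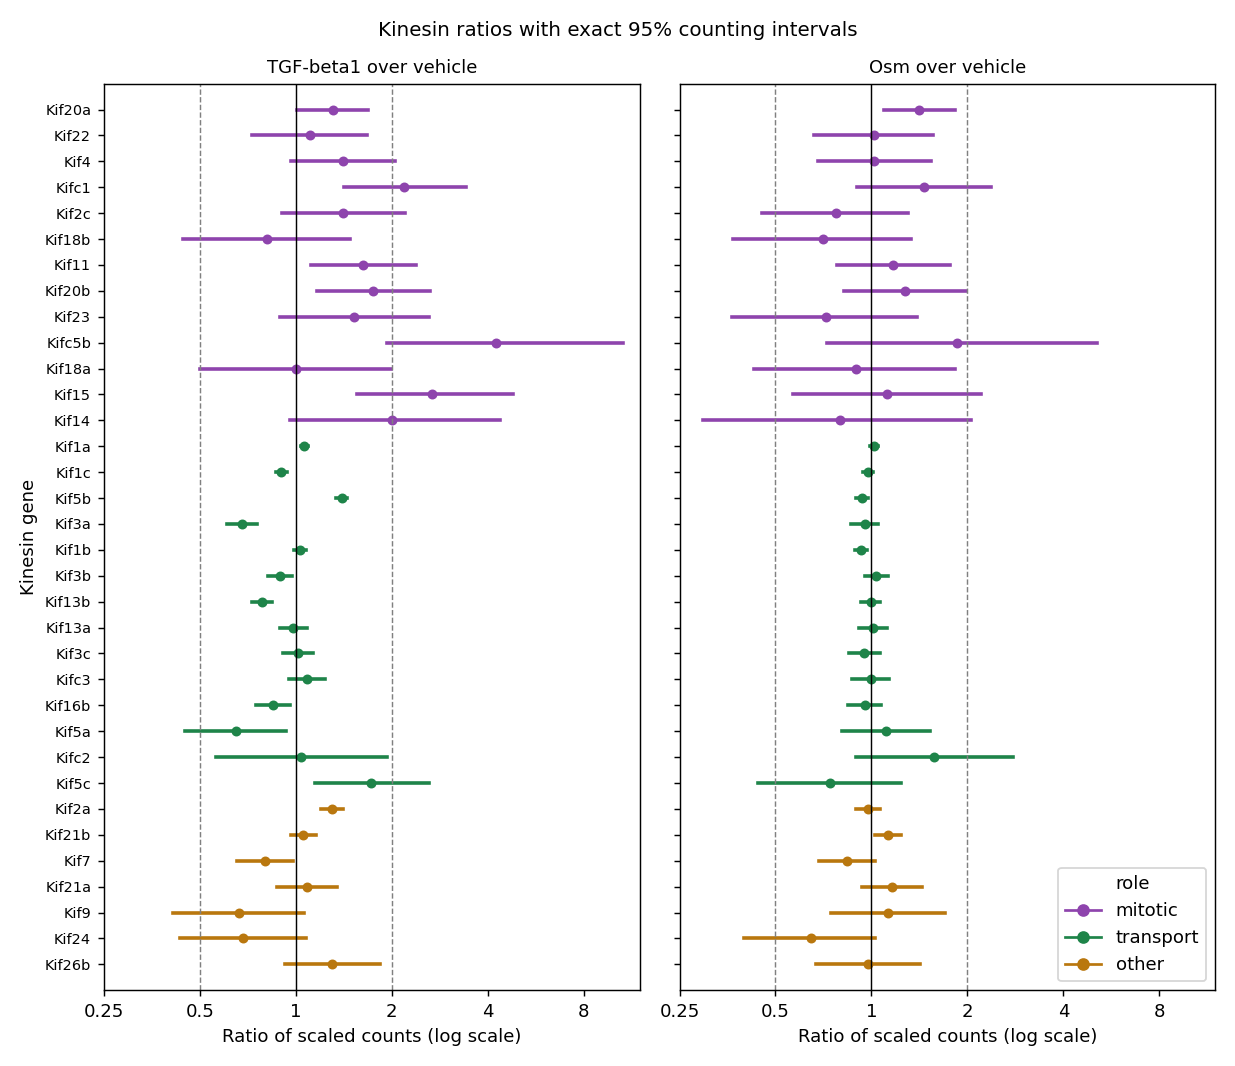
Ratio of scaled counts (log axis) for TGF-beta1 over vehicle (left) and Osm over vehicle (right), for the 34 tested kinesins by role; points are the ratios, bars the exact 95% counting intervals, and dashed lines mark 2-fold. On the left 11 of 13 mitotic points lie right of 1 while transport kinesins lie on both sides, and on the right no kinesin passes 2-fold.

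Promoters of the mitotic kinesins shared letters that those of the transport kinesins mostly lacked. Promoter windows from RefSeq (build GRCm38.p6, 250 bases before to 50 after the annotated start) were at hand for 33 of the 43 kinesins. They covered 12 mitotic members, all but Kif20a, and 10 transport members. The cell cycle genes homology region (CHR) is a short promoter element of genes expressed late in the cell cycle, known to be read by MuvB complexes, often together with upstream CCAAT boxes. The letters TTTGAA or TTCGAA, on either strand, stood in 11 of 12 mitotic promoters and in 1 of 10 transport promoters, where 21.7% of all 27025 promoters held them. They began within 30 bases of the start in 9 of 12 mitotic promoters, in none of 10 transport promoters and in 4.02% of all promoters; this distance was chosen after the positions were seen. CCAAT, on either strand, was in 8 of 12 mitotic and 3 of 10 transport promoters, beside 41.1% of all, and 7 of 12 mitotic promoters held CCAAT together with CHR letters near the start, beside 1.69% of all. A match is a description of letters and not of a bound site. Among the other kinesins 3 of 11 promoters held the CHR letters, Kif24 and Kif26b among them.

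The windows below are those of the 5 mitotic kinesins called higher with TGF-beta1 at 1.5-fold, followed by that of Kif5c, the transport kinesin called higher, which has no CHR letters. Capitals mark the CHR letters, written as TTCAAA where the element lies on the other strand. Each runs 5′ to 3′ on the strand of its gene. In GRCm38.p6 they lie at chr9:122950831-122951130 (plus strand) for Kif15, chr17:33890584-33890883 (minus) for Kifc1, chr17:26916841-26917140 (plus) for Kifc5b, chr19:37376132-37376431 (plus) for Kif11, chr19:34922108-34922407 (plus) for Kif20b and chr2:49619036-49619335 (plus) for Kif5c.
Kif15: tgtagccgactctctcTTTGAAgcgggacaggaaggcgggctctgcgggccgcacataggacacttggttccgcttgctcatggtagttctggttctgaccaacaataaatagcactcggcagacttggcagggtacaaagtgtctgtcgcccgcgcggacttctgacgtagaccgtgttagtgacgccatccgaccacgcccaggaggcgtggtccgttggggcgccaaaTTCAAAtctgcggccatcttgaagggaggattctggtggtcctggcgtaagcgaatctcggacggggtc
Kifc1: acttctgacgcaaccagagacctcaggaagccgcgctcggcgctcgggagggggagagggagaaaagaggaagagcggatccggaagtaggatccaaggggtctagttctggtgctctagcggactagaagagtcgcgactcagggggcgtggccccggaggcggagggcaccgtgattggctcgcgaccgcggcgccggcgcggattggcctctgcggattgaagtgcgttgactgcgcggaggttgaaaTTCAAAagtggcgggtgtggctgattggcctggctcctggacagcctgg
Kifc5b: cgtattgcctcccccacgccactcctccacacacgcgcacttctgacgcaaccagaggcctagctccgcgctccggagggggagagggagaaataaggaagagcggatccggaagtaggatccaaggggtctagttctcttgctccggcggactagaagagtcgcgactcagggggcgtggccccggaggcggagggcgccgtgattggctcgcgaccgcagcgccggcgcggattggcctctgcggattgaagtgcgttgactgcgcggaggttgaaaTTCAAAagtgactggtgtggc
Kif11: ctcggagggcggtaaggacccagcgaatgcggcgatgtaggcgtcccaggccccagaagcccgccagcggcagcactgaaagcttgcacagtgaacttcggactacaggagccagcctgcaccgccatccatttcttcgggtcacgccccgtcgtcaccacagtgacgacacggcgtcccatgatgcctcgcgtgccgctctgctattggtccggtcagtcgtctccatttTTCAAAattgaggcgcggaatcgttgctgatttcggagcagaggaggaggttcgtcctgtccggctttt
Kif20b: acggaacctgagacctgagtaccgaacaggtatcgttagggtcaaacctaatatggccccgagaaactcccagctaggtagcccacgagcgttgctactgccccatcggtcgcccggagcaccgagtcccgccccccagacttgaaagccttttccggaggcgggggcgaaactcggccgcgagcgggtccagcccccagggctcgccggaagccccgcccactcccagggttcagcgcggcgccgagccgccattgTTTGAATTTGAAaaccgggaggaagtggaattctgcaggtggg
Kif5c: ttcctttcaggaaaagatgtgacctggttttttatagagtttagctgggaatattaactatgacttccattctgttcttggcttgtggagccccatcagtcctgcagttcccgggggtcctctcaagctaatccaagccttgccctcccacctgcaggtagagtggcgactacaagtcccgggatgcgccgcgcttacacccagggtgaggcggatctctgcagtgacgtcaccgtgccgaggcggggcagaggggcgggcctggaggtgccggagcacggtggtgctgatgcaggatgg

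In Kif15 and Kif11 the capitals nearest the start begin 19 bases before it. In Kif20b a directly repeated pair begins 7 and 13 bases after the start, in Kifc1 the letters begin 1 base after it, and in Kifc5b 29 bases after it. Aligned at a shift of 28 bases, the Kifc1 and Kifc5b windows were identical at 239 of 272 bases (87.9%), and the CHR letters of the copies fall at the same aligned position. The CHR letters were not confined to called members. Kif22, at a ratio of 1.10, and Kif18b, at a ratio of 0.813, have them 17 bases before and 3 bases after the start, while in Kif14 and Kif2c they lie 228 and 103 bases before it. Kif18a, at a ratio of 0.998, was the mitotic kinesin whose window held none. Kif1a was the transport kinesin with CHR letters, 44 bases before its start.

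**Figure D3:**
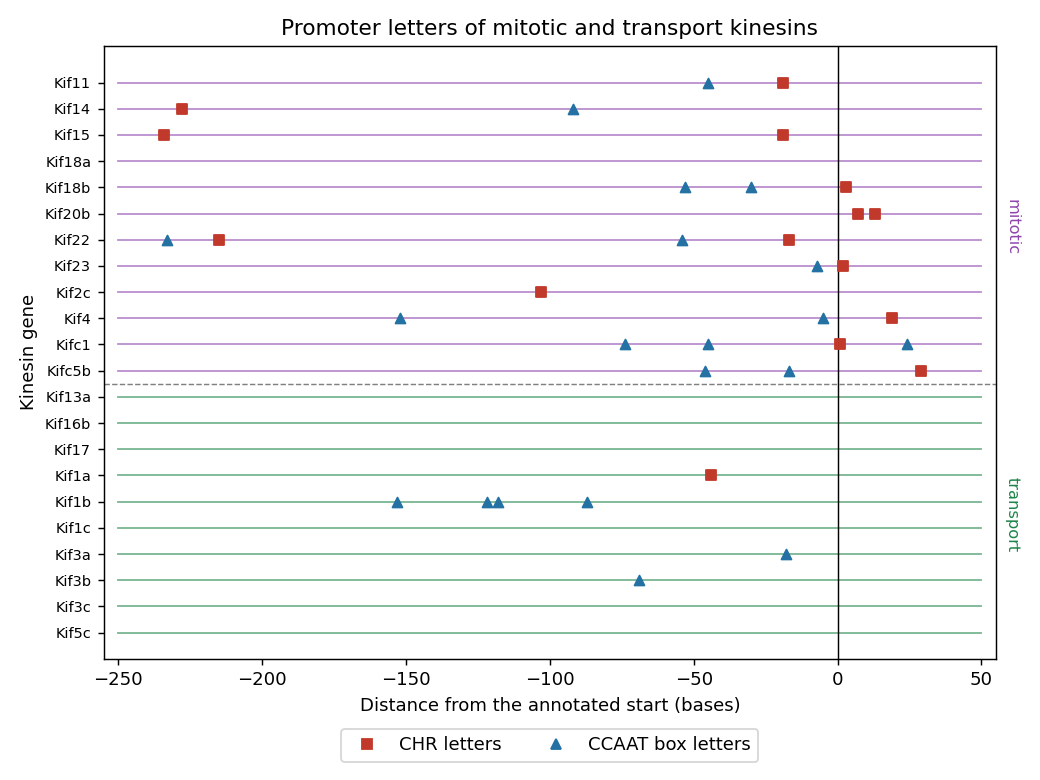
Distance in bases from the annotated start of CHR letters (squares) and CCAAT letters (triangles), either strand, in the promoter windows of 12 mitotic and 10 transport kinesins. CHR letters begin within 30 bases of the start in 9 of the 12 mitotic windows and in none of the transport windows.

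As a group, transport kinesins were nearly level between TGF-beta1 and vehicle, with members on both sides. Their summed level was 1764 CPM with TGF-beta1, 1673 with Osm and 1705 with vehicle. The sum was 1.03-fold higher with TGF-beta1 than with vehicle (1.02 to 1.05). Kif5b alone, at 332 CPM with TGF-beta1 and 238 with vehicle, differed by more CPM than the sum did. The median log2 ratio of the transport kinesins was 0.00 (-0.01 with scaling by total counts), with 7 of the 14 tested members above 0 and 7 below. None was called at 2-fold, beside 7.06% of all genes tested, and at 1.5-fold Kif5c was higher and Kif5a lower, beside 15.5% of all genes tested. Of 14 members, these counts are near the shares over all genes. Counting intervals excluded 1 for 3 higher and 6 lower members. Over all genes tested they did so with 27.8% higher and 24.2% lower, 52% together, so at these depths an interval that excludes 1 is common.

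The kinesin-1 heavy chains did not move together. Kif5b was at 332 CPM with TGF-beta1, 222 with Osm and 238 with vehicle, 1.39-fold higher with TGF-beta1 than with vehicle (1.34 to 1.45). Kif5c, a form mostly found in neurons, had 69 reads with TGF-beta1, 28 with Osm and 40 with vehicle, 1.72-fold higher (1.15 to 2.61). Kif5a, also mainly neuronal, had 52 reads with TGF-beta1, 84 with Osm and 80 with vehicle, 1.54-fold lower (1.07 to 2.23). In FPKM, Kif5b exceeded Kif5a 103-fold with TGF-beta1, 40.2-fold with Osm and 48.0-fold with vehicle, and exceeded Kif5c 79.4-fold, 123-fold and 98.1-fold in the same libraries. Kif5b thus made nearly all kinesin-1 heavy chain RNA in each library.

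The kinesin-2 subunits, which carry cargo into the primary cilium, also differed. Kif3a was at 31.8 CPM with TGF-beta1, 44.7 with Osm and 47.0 with vehicle, 1.48-fold lower with TGF-beta1 than with vehicle (1.33 to 1.64), just short of the 1.5-fold threshold. Its partner Kif3b was at 54.4, 63.1 and 60.9 CPM, 1.12-fold lower (1.03 to 1.22), and Kif3c was at 38.0, 35.6 and 37.4 CPM, a ratio of 1.02 (0.914 to 1.13). Per length, Kif3a stood at 0.921 of the FPKM of Kif3b with TGF-beta1, 1.11 with Osm and 1.21 with vehicle. Their order thus turned in the TGF-beta1 library, by a margin for which no counting interval was computed. Kifap3, the adaptor subunit, was at 1.17, 1.05 and 1.21 times the FPKM of Kif3b. Kif3c overlaps the antisense gene 1110002L01Rik, which had 513 reads with TGF-beta1, 324 with Osm and 396 with vehicle, so its level is uncertain.

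The kinesin-3 vesicle motors differed little. Kif1a was at 606 CPM with TGF-beta1, 582 with Osm and 570 with vehicle (1.06-fold over vehicle, 1.03 to 1.09). Kif1b, which moves mitochondria and vesicles, was at 232, 209 and 225 CPM (1.03-fold, 0.986 to 1.07). Kif1c was at 294 CPM with TGF-beta1, 318 with Osm and 326 with vehicle, 1.11-fold lower (1.07 to 1.15). Kif13b was the member of this family that differed most, at 72.6 CPM with TGF-beta1, 92.3 with Osm and 92.8 with vehicle, 1.28-fold lower (1.19 to 1.37). The endosomal motor Kif16b, at 26.6, 29.9 and 31.4 CPM, was 1.18-fold lower (1.05 to 1.33), and Kif13a, at 42.5, 43.6 and 43.3 CPM, had a ratio of 0.983 (0.890 to 1.09).

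Among the minus-end transport kinesins, Kifc3 was at 26.9 CPM with TGF-beta1, 24.6 with Osm and 24.7 with vehicle (1.09-fold, 0.954 to 1.24), and Kifc2 had 24, 34 and 23 reads (1.04-fold, 0.563 to 1.93). Kifc2 overlaps the more abundant Cyhr1 on the opposite strand, at 1375 reads with TGF-beta1, 1332 with Osm and 1486 with vehicle. Kif17, a dendritic motor and not a minus-end kinesin, did not reach 1 CPM. Its reads were 1 with TGF-beta1, 1 with Osm and 12 with vehicle, a ratio of 0.0832 (0.00195 to 0.562) for TGF-beta1 over vehicle. Kif17 shares 10898 bases with Sh2d5 on the same strand, which had 14, 16 and 9 reads.

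The 15 other kinesins, with ciliary, Hedgehog or microtubule-regulating roles, held no member called at 2-fold or 1.5-fold between TGF-beta1 and vehicle. With 7 members tested, beside 7.06% and 15.5% of all genes called, this is near the background. Kif2a, a depolymerase that works in interphase as well as at spindle poles, was at 79.0 CPM with TGF-beta1, 59.4 with Osm and 61.0 with vehicle, 1.30-fold higher with TGF-beta1 (1.20 to 1.40). Dimt1, which it overlaps on the other strand, was at 17.6, 11.8 and 10.5 CPM. Kif7, the Hedgehog pathway kinesin of the cilium tip, was at 9.82 CPM with TGF-beta1, 10.3 with Osm and 12.3 with vehicle, 1.25-fold lower (1.02 to 1.53), and Ticrr, which overlaps it by 51 bases on the other strand, had 25, 13 and 6 reads. Kif9, an axonemal motor, had 32, 51 and 48 reads (ratio 0.666, 0.412 to 1.06) and Kif24, which restrains cilium formation, had 35, 31 and 51 reads (ratio 0.685, 0.432 to 1.07). Kif21b and Kif21a, which regulate microtubule growth, had ratios of 1.06 (0.963 to 1.16) and 1.08 (0.872 to 1.34), and Kif26b, an atypical kinesin, 1.30 (0.924 to 1.83). The remaining 8 were not tested. Kif27 lay just under 1 CPM with 14 reads in the TGF-beta1 library, 8 in the Osm library and 18 in the vehicle library, Kif6 had 5, 11 and 14, and Kif12, Kif19a, Kif19b, Kif26a and Kif28 had at most 6 reads in any library. Kif2b had 0 reads in all 3, which allows up to 0.163, 0.173 and 0.163 CPM.

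With Osm few genes of any kind were called against vehicle, and the calls among the 34 tested kinesins were near that background. No member was called at 2-fold, where 0.948% of all genes tested were higher and 0.649% lower, 1.6% together. None was called at 1.5-fold either, where 2.1% of all genes tested were higher and 1.66% lower, 3.76% together. The mitotic kinesins had a median log2 ratio of 0.03, with 8 above 0 and 5 below, and their sum was 1.13-fold higher with Osm than with vehicle (0.997 to 1.28). Kif20a gave most of that difference, at 148 reads with Osm and 111 with vehicle (1.41-fold, 1.10 to 1.82), and without it the ratio of the sums was 1.05. Among the members called with TGF-beta1, the Osm over vehicle ratios were 1.12 for Kif15 (0.565 to 2.21), 1.46 for Kifc1 (0.904 to 2.38), 1.86 for Kifc5b (0.726 to 5.11), 1.17 for Kif11 (0.777 to 1.77) and 1.27 for Kif20b (0.819 to 1.99). All 5 intervals included 1. Those of Kif15, Kifc1 and Kifc5b also reached past 2-fold, so a difference of that size was not excluded for these 3. The sum of the transport kinesins had a ratio of 0.981 (0.966 to 0.997), with Kif1b at 0.927 (0.886 to 0.969) and Kif5b at 0.933 (0.893 to 0.974). Kif21b was 1.13-fold higher (1.03 to 1.23). The low Kifc2 was 1.57-fold higher (0.897 to 2.79) and Kif24 1.55-fold lower (0.974 to 2.51), with intervals that included 1. Kif17, which was not tested, had 1 read with Osm and 12 with vehicle, a ratio of 0.0884 (0.00207 to 0.597).

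Set directly against the TGF-beta1 library, the Osm library was lower for 12 of 13 mitotic kinesins. This comparison shares the TGF-beta1 library with that of TGF-beta1 over vehicle. At 2-fold, Kif14 was 2.51-fold lower with Osm than with TGF-beta1 (1.13 to 6.14), Kif15 2.40-fold lower (1.41 to 4.25), Kifc5b 2.29-fold lower (1.19 to 4.61) and Kif23 2.10-fold lower (1.16 to 3.98). Kif14 and Kifc5b passed the 1 CPM filter through the TGF-beta1 library alone and so could only be lower here, and without them 2 of the other 11 were called, with a median log2 ratio of -0.46. The transport kinesin Kif5c was 2.32-fold lower (1.48 to 3.74). Of all genes tested, 2.42% were called 2-fold lower and 5.07% higher, 7.49% together, and of those under 10 CPM 5.17% were lower. At 1.5-fold Kif2c was also lower (1.81-fold, 1.12 to 3.00), while Kif5a (1.72-fold, 1.20 to 2.47) and Kif9 (1.69-fold, 1.07 to 2.72) were higher. Of all genes tested 6.16% were lower and 9.93% higher at that threshold, 16.1% together. Kifc1 had a ratio of 0.668 (0.447 to 0.987) and Kif5b of 0.669 (0.643 to 0.697), both just short of the threshold, and Kif3a was 1.40-fold higher (1.26 to 1.57). The mitotic sum had a ratio of 0.743 (0.662 to 0.833) and a median log2 ratio of -0.47, and the transport sum a ratio of 0.948 (0.933 to 0.964).

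Other genes of cell division stood beside the mitotic kinesins. Of 40 spindle and cytokinesis genes, 33 lay above 0 for TGF-beta1 over vehicle, with a median log2 ratio of 0.56 and a summed level of 216 CPM with TGF-beta1, 153 with Osm and 154 with vehicle. At 1.5-fold 19 were higher and none lower, and at 2-fold 4 were higher. These 4 were the kinetochore genes Kntc1 (2.30-fold), Knl1 (3.38-fold) and Spc24 (2.63-fold) and the checkpoint kinase gene Bub1 (2.41-fold). Of all genes tested, 51.3% lay above 0, and 6.01% were called higher and 9.53% lower at 1.5-fold. At 2-fold, 2.27% were called higher and 4.79% lower. Of the genes under 10 CPM, 9.83% were higher at 1.5-fold and 5.01% at 2-fold. Cenpe was at 4.18 CPM with TGF-beta1, 2.59 with Osm and 2.28 with vehicle, 1.83-fold higher (1.24 to 2.73). Top2a, the mitotic topoisomerase, was at 17.6, 11.7 and 10.5 CPM (1.68-fold, 1.40 to 2.01), and the proliferation marker Mki67 at 12.6, 7.66 and 8.21 CPM (1.54-fold, 1.25 to 1.90). The 22 DNA replication genes had a median of 0.54, with 9 higher at 1.5-fold and none lower, and a summed ratio of 1.40 (1.35 to 1.45). Rrm1, a subunit of ribonucleotide reductase, was at 90.7 CPM with TGF-beta1, 49.6 with Osm and 53.4 with vehicle. Of 19 regulators of mitotic genes, the repressor E2f7 was called 2-fold higher (3.24-fold, 1.82 to 6.09) and the others were not, with a median of 0.19 and a ratio of the sums of 0.989 (0.962 to 1.02). Foxm1, which activates genes with CHR elements, was at 9.22 CPM with TGF-beta1, 6.63 with Osm and 7.61 with vehicle (1.21-fold, 0.964 to 1.53).

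Light chains, adaptors, other motors and tubulins were described in the same way. Of all genes tested, 51.3% lay above 0, 7.06% were called at 2-fold and 15.5% at 1.5-fold for TGF-beta1 over vehicle. Of 19 tested light chains and adaptors, none was called at 2-fold between TGF-beta1 and vehicle, and at 1.5-fold Mapk8ip1, the JIP1 scaffold that links cargo to kinesin-1, was lower, at 46.2 CPM with TGF-beta1, 81.8 with Osm and 78.5 with vehicle (1.70-fold, 1.56 to 1.85). The list's median was -0.04, and Klc1, the light chain with the highest mean level, was at 183, 184 and 189 CPM. None of 23 dynein and dynactin genes was called at 1.5-fold, with a median of 0.16 and the cargo adaptor Bicd2 1.42-fold higher (1.35 to 1.49). Of 13 tested tubulins, 12 lay above 0 with a median of 0.35 and a summed level of 3151 CPM with TGF-beta1, 2358 with Osm and 2507 with vehicle. Tubb3 was 1.68-fold higher (1.59 to 1.77) and Tubb5, the broadly expressed form, 1.28-fold higher (1.25 to 1.31), while the low Tubb4a was 2.46-fold lower (1.73 to 3.55). The 17 tested Hedgehog and cilium genes had a median of -0.03, and Gas1, a Hedgehog co-receptor, was 4.48-fold lower (4.20 to 4.78). The 15 tested myosins had a median of -0.03 and no call at 2-fold, and at 1.5-fold 1 was higher and 3 lower. The mitochondrial myosin Myo19 was 1.85-fold higher (1.59 to 2.16) and Myo18a 1.93-fold lower (1.57 to 2.37).

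**Figure D4:**
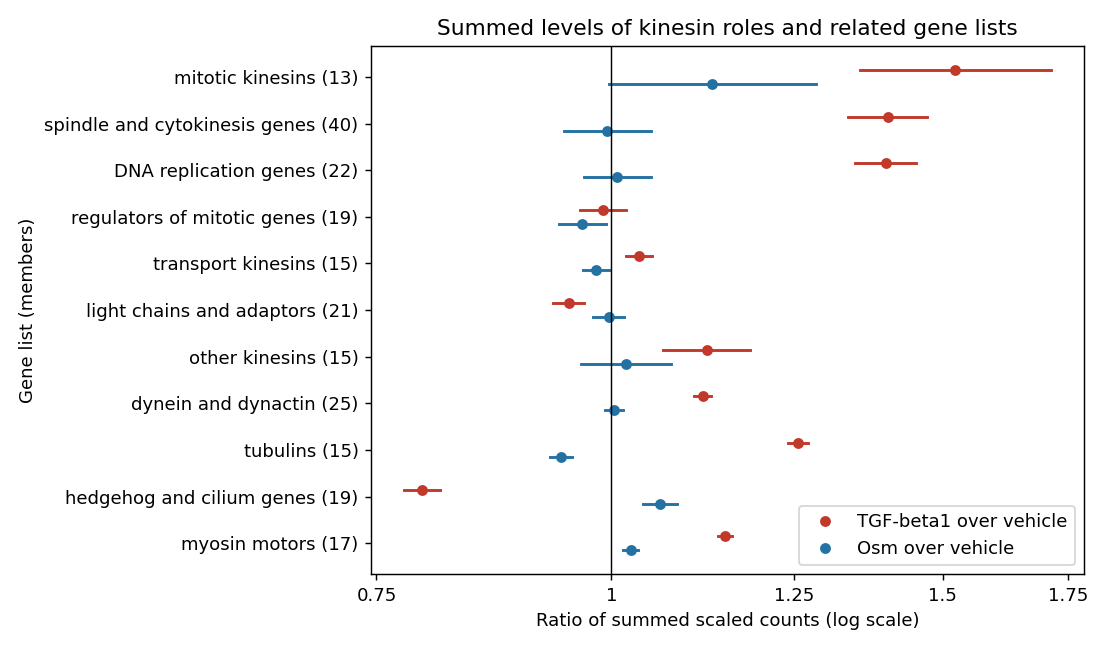
Ratio of summed scaled counts (log axis) for kinesin roles and related gene lists, TGF-beta1 over vehicle and Osm over vehicle; numbers in brackets are listed members in the count table, and bars are exact 95% counting intervals. With TGF-beta1 the mitotic kinesins (1.52), spindle genes (1.40) and DNA replication genes (1.40) lie above the transport kinesins (1.03), and with Osm the mitotic interval (0.997 to 1.28) includes 1.

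The markers of other cells differed between the libraries as well, but not in step within a list. The mural sum, highest with TGF-beta1, was carried by Cspg4, while Notch3 was at 10.4 CPM with TGF-beta1, 15.5 with Osm and 14.6 with vehicle and Abcc9 at 1.74, 6.05 and 4.29 CPM. The leukocyte and endothelial sums were lowest with TGF-beta1, while the leukocyte marker Csf1r was at 10.2 CPM with TGF-beta1, 8.41 with Osm and 8.48 with vehicle. The low endothelial markers Kdr, at 12, 4 and 5 reads in the same order, and Pecam1, at 5, 3 and 2, were also highest with TGF-beta1. Cdh5, at 9, 18 and 22 reads, was lowest there, as were Tek and Vwf. Cd68 was 2.42-fold lower with TGF-beta1 than with vehicle (1.81 to 3.25), and Vwf 3.94-fold lower (2.60 to 6.14). The part of other cells in the kinesin differences was not tested.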

How the data were processed

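RNA sequencing of 3 libraries was used, 1 each of TGF-beta1, Osm and vehicle, grouped by sample title and treatment label. Per the labels' protocols, polyadenylated RNA was copied with random primers, and strand-specific and other library types are described without saying which was made. The authors deposited whole-number read counts per gene and FPKM values for the same genes. The authors' deposited FPKM equal counts divided by gene length and by DESeq2 size factors times the geometric mean of the library totals. Of tools, TopHat2, HISAT2, HISAT and CASAVA appear in the submitters' processing notes with no version or role, and mm39 as the build. Read counter and annotation release: not given in the sources used here.

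Library totals were 18533741 (TGF-beta1), 17319872 (Osm) and 18336068 (vehicle). Counts were scaled by TMM (factors 0.995, 1.00 and 1.00) in edgeR 4.0.16 under R 4.3.3, and no edgeR model was fitted. Ratios were computed for all 13712 genes at 1 CPM or more in at least 1 library, with prior count 0.5 and exact conditional binomial (Clopper-Pearson) 95% intervals in Python 3.11.15 with scipy 1.17.1, and were checked on simulated counts. A call needed a 2-fold (or 1.5-fold) log2 ratio and an interval excluding 1. Reads carry no molecular identifiers, so intervals and the limit for a count of 0 (3 counts) cover counting error only.

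Alternatives were DESeq2 1.42.0 size factors, total counts, other filters, prior count 2 and log2(FPKM + 0.1). Every kinesin is accounted for, with fuller values for those at 1 CPM. From other lists the text takes called genes and up to 4 more, chosen by ratio for TGF-beta1 over vehicle (at 5 CPM or more) or by mean level, plus Mki67, Top2a, Cenpe and Foxm1. Members and lists were chosen with earlier results of these data known. Promoters are from RefSeq (GRCm38.p6), searched for TTTGAA or TTCGAA and for CCAAT on both strands. Shared 50-base windows were counted in GENCODE transcripts of that earlier build, whose coordinates were not mixed with those of the files. Values of a few listed genes are not reported here.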

Additional observations from a re-analysis of the deposited data

How the results depend on the processing

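Each condition had 1 library, so leaving out a replicate was not possible. No paired analysis was possible because each group holds 1 library and the labels share no replicate numbers. DESeq2 size factors, total counts and prior count 2 left the counts of called kinesins within 1.5 times of those given. With a 5 CPM filter the calls fell to 0 for TGF-beta1 over vehicle (3 at 2-fold, 7 at 1.5-fold) and to 0 for Osm over TGF-beta1 (5 and 8), since every called kinesin lies under 5 CPM in each library. The mitotic median log2 ratio, which then rests on Kif20a alone, was 0.38 for TGF-beta1 over vehicle, 0.50 for Osm over vehicle and 0.12 for Osm over TGF-beta1, where it changed sign (-0.47 with all members). On the log2(FPKM + 0.1) scale the 2-fold calls were 1 for TGF-beta1 over vehicle, Kifc5b, and 0 for Osm over TGF-beta1, which that pseudocount brings about by shrinking ratios of genes under 1 FPKM. With no filter, Kif17 was added as a lower call, giving 1 at 2-fold and 1 at 1.5-fold for Osm over vehicle, and 4 and 8 for TGF-beta1 over vehicle. Counting every interval that excludes 1, which was added after the data were seen, gave 17 of the 34 tested kinesins for TGF-beta1 over vehicle. It gave 4 for Osm over vehicle and 17 for Osm over TGF-beta1. Such intervals were found for 52%, 21.5% and 51.2% of all genes tested, in the same order. The ratio of summed transport kinesins for Osm over vehicle was 0.961 without Kif1a (0.981 with it). That of summed mitotic kinesins for Osm over TGF-beta1 was 0.658 without Kif20a and 0.638 without members that overlap another protein-coding gene (0.743 with all). For TGF-beta1 over vehicle this ratio ran from 1.43, without Kifc1 and Kifc5b, to 1.66, without the overlapped members. No called kinesin changed sign. Beside the calls removed by the 5 CPM filter, single kinesins lost their 2-fold call in 8 values, 7 of them on the FPKM scale, and kept it or its absence in 550. Depth limits the mitotic kinesins, with 8 to 148 reads per library, and left 9 transport and other kinesins untested.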
